A study of Mus musculus with 16 samples.

Results

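Colon fibroblasts that were positive for the surface protein Sca1 and bright for a Gli1 reporter (Sca1+Gli1ZsGreenhigh, here reporter-high) were compared with Sca1+ fibroblasts without reporter signal (Sca1+Gli1ZsGreen-, here reporter-negative). Each population was measured on 4 arrays, labelled as 1 for each of 4 mice, so 8 of the 16 arrays of the study carry the comparison. Members were all probe sets with 1 gene symbol, 28898 of 45141, which gave 17097 genes. All mice were C57BL/6 and of the genotype Gli1CreERT2-ZsGreen, and all received 1 mg tamoxifen into the peritoneum on each of 5 days and were killed on day 6. Cells of both populations had been gated as Epcam-, CD45-, CD31- and gp38+, and 2 ng of RNA per sample was amplified with a 3′ kit. In this model ZsGreen marks cells in which the Gli1 locus drove the recombinase while tamoxifen was present, so the reporter records an earlier state of the cell as well as the present one. The arrays measured RNA of sorted pools, and in such bulk samples fewer cells of a type and less RNA per cell cannot be told apart.

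Gli1 is a zinc finger transcription factor whose own gene is a standard readout of Hedgehog signalling. In the gut, epithelial cells make Sonic and Indian hedgehog, and the mesenchyme beneath receives them through the receptor Ptch1, which in the absence of ligand silences the transducer Smo. Fibroblasts, smooth muscle and pericyte-like cells of the gut wall are the known responders, and Sca1, encoded by Ly6a, is used to mark fibroblasts of the adventitia and outer mucosa. The probe annotation lists no probe set for Ly6a, which is not analysed here.

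The sort genes were examined first. Gli1 read 2453, 2978, 2759 and 2255 in the reporter-high arrays of mice 1 to 4 and 1545, 889, 1013 and 968 in the reporter-negative arrays. The groups did not overlap, and the difference was 1.27 ± 0.21 on the log2 scale (here and below ± SE from limma, 4 against 4 arrays, adjusted p = 0.00053). Pdpn, the gene of the gp38 protein, read 7556, 8788, 5982 and 7651 against 5417, 3310, 2828 and 3776, also without overlap (1.00 ± 0.26, adjusted p = 0.00812). Of the genes whose proteins were gated out, Epcam was lower in reporter-high cells, at 2010, 1698, 6869 and 3312 against 12855, 18063, 20060 and 20560 (-2.57 ± 0.39, adjusted p = 0.000365). Pecam1, the gene of CD31, likewise read 790, 909, 1067 and 1111 against 5043, 4135, 2882 and 4198 (-2.05 ± 0.32, adjusted p = 0.000424). For Ptprc, the gene of CD45, the groups overlapped (-0.42 ± 0.31, adjusted p = 0.356).

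Markers of epithelium were thus present in the RNA of both populations and higher in the reporter-negative one. Averaged over 18 colon epithelium genes, the log2 signal was 10.60, 10.46, 12.23 and 11.32 in the reporter-high arrays of mice 1 to 4 and 13.08, 13.59, 13.79 and 13.57 in the reporter-negative arrays. Within reporter-high cells mouse 3 was highest. The mean of 19 pan-stromal genes ran the other way, at 14.60 to 14.78 against 13.94 to 14.40. Leukocyte markers overlapped, with a list mean of 9.29 to 9.66 against 9.54 to 9.90. The 3′ to 5′ signal ratio of the control Actb was 1.24 ± 0.0307 (SD, n = 4) in reporter-high and 1.11 ± 0.0138 in reporter-negative arrays, and that of Gapdh was 0.997 ± 0.0128 and 0.954 ± 0.0083. The part of these shifts in the differences below was not tested, and they stand beside every stromal and epithelial group described here.

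**Figure D1:**
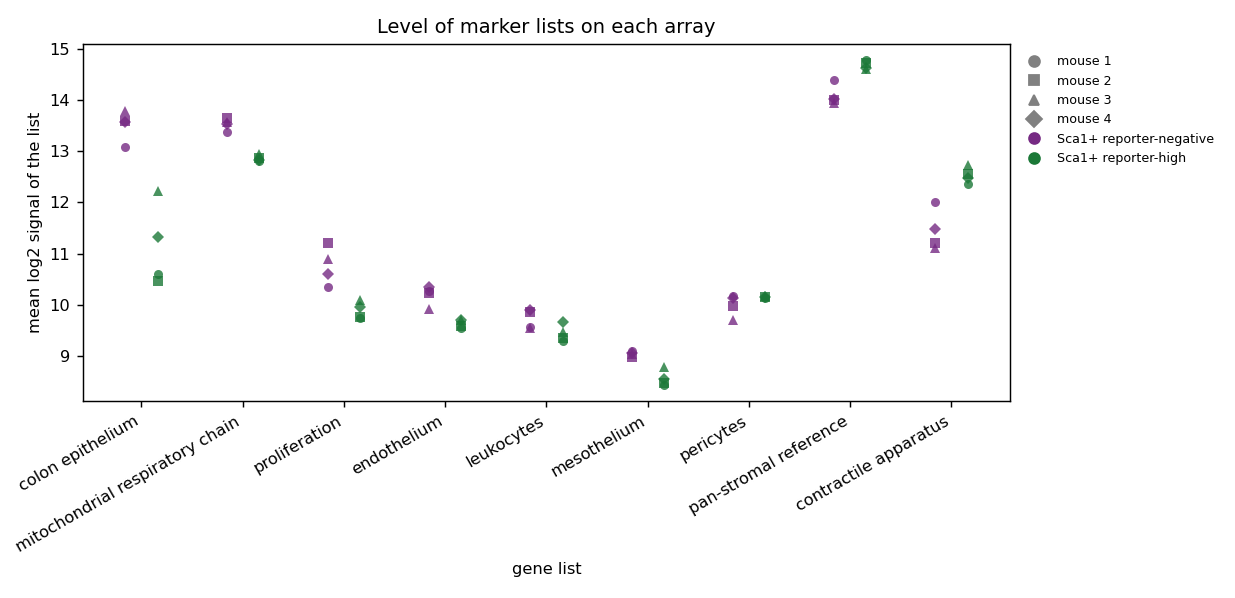
Mean log2 signal (vertical axis) of 9 marker lists in each of the 8 arrays. Green points are reporter-high and purple points reporter-negative arrays, and circle, square, triangle and diamond stand for mice 1 to 4. For the colon epithelium list the reporter-high arrays lie between 10.46 and 12.23, all below the reporter-negative arrays at 13.08 to 13.79, while for the contractile list they lie above.

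The arrays were of like overall brightness, with medians of 661 to 680, and 59.2% to 81.4% of probe sets lay above the highest of 23 nonspecific controls, which read 234 to 488 per array. Arrays of a population correlated at 0.974 to 0.995. The labels of mouse 2 were contradicted by the sex-linked genes. Xist, expressed from the inactive X chromosome, read 476, 487, 18153 and 18609 in the reporter-high arrays of mice 1 to 4 and 466, 18116, 20557 and 21946 in the reporter-negative arrays. The Y-linked gene Eif2s3y read 2901, 3111, 137 and 150 against 3059, 146, 154 and 140. The 2 arrays labelled mouse 2 therefore did not come from 1 animal, and counts of calls without them are given with the gene groups. Eif2s3y was high in the reporter-high arrays of mice 1 and 2. Among reporter-negative arrays it was high only in that of mouse 1, so sex was not balanced between the populations. With only the arrays without Y-linked signal limma called 2199 genes higher and 2031 lower. That reporter-negative array of mouse 1 lay nearer to the reporter-high arrays than the other 3 did in the pan-stromal and contractile list means. The part of sex in these differences was not tested.

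The comparison called 5276 of 17097 genes (30.9%) at an adjusted p under 0.05, with 2900 (17.0%) higher and 2376 (13.9%) lower in reporter-high cells. Of these, 441 (2.58%) were at least 2-fold higher and 789 (4.61%) at least 2-fold lower. All 4 reporter-high arrays lay above all 4 reporter-negative arrays for 2608 genes (15.3%) and below them for 2550 (14.9%). Counts of called list members below are to be read beside the 17.0% called higher and 13.9% called lower over all genes. Without the arrays of mouse 2 the calls numbered 1385 higher and 1349 lower of 17097 genes, and without those of mouse 4 1648 and 1546. List counts without mouse 2 are to be read beside 1385 and 1349, not beside the 17.0% and 13.9%. Deviations from the population means correlated between the 2 arrays of mice 1, 3 and 4 at 0.474, 0.506 and 0.12. With the mouse as a block and mouse 2 left out limma called 2439 genes higher and 2066 lower. Of 264 genes named here 63 lost their call without mouse 2 and 17 when the block was kept as well, so a call described below as lost without mouse 2 refers to the fit without a block. With the block and without mouse 2 the counts included those of collagens (20 higher and 1 lower), BMP genes (10 and 3), FGF, EGF and IGF genes (8 and 3), PDGF and VEGF factors (7 and 4), elastic fibre genes (17 and 0), TGF-β genes (11 and 0) and proliferation genes (0 and 23). The split of calls depended on how arrays were put on a common scale. With arrays as deposited the median gene differed by -0.002 and 55.0% of calls were higher. Scaled to the hybridization controls the median gene differed by 0.47. Of 17097 genes 12676 were then called higher and 779 lower, so that 94.2% of 13455 calls were higher. Arrays were also scaled to the pan-stromal list, by the median over its genes of each gene's deviation from its own mean. The median gene then differed by -0.61, with 427 genes (2.5%) called higher and 11776 (68.9%) lower, so that 3.5% of calls were higher. List counts under either scaling are to be read beside the counts over all genes under that scaling. Differences between about -0.47 and 0.61 therefore changed sign under at least 1 of these scalings, and counts relative to the pan-stromal list are given for the stromal gene groups. Where 0 members of a list are said to have risen or fallen in the full comparison, limma also gave 0 in that direction at an unadjusted p under 0.05, except for pericyte markers.

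**Figure D2:**
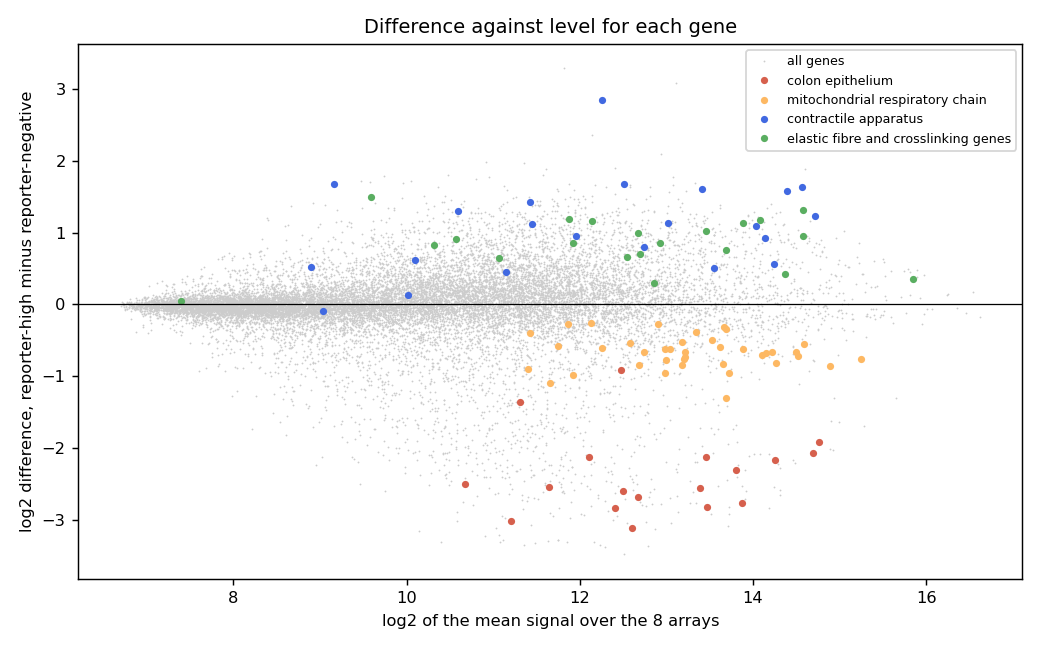
Log2 difference between reporter-high and reporter-negative cells (vertical axis) against the log2 of the mean signal over the 8 arrays (horizontal axis) for all 17097 genes, with the colon epithelium, mitochondrial, contractile and elastic fibre lists coloured. The contractile and elastic fibre genes lie mostly above 0, with medians of 1.11 and 0.86, and the 18 colon epithelium genes lie below 0.

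Most measured genes of Hedgehog reception and feedback were higher in reporter-high cells with arrays as deposited. The coreceptors Boc, Gas1 and Cdon were not. Of 15 measured receptors, Gli factors and feedback genes 10 rose and 1 fell, with a median of 0.58 against -0.002 over all genes. The reporter is driven from the Gli1 locus, so Gli1 itself is a check of the sort and not a result. It is nevertheless counted among the 10 that rose and included in the median. Hhip, a membrane protein that binds hedgehog ligands and withholds them from the receptor, read 10852, 14642, 18425 and 18596 in reporter-high and 3990, 1214, 1243 and 1759 in reporter-negative arrays. Every reporter-high array was above every reporter-negative one, and all 4 probe sets of Hhip passed the threshold in this direction (3.08 ± 0.36, adjusted p = 0.000132). Ptch1, the receptor and itself a Hedgehog target, read 35470, 35729, 29213 and 23242 against 25514, 6102, 5307 and 12792. Here the reporter-negative array of mouse 1 reached above the lowest reporter-high array, so that the groups overlapped (1.59 ± 0.42, adjusted p = 0.0105), and the call was lost without mouse 2.

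Among the transducing factors, Gli2, the main activator of the pathway, read 6950, 6396, 6224 and 6601 against 3252, 2166, 2440 and 2033 (1.43 ± 0.22, adjusted p = 0.000378). Scube1, a secreted protein of the family that helps release hedgehog ligands, read 7691, 6997, 7788 and 8488 against 4255, 2907, 3181 and 2845 (1.25 ± 0.23, adjusted p = 0.00116). For both genes the groups were apart. Of the coreceptors, Boc (0.11 ± 0.14, adjusted p = 0.612) and Gas1 (-0.09 ± 0.11, adjusted p = 0.592) did not pass, and Cdon was the member that fell (-0.65 ± 0.10, adjusted p = 0.000317). Relative to the pan-stromal list the median of the Hedgehog list was -0.03, with 5 members higher and 4 lower. The sort gene Gli1, at 0.66, is counted among these 5. Without mouse 2, 7 members, again with Gli1, were higher and 1 lower.

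**Figure D3:**
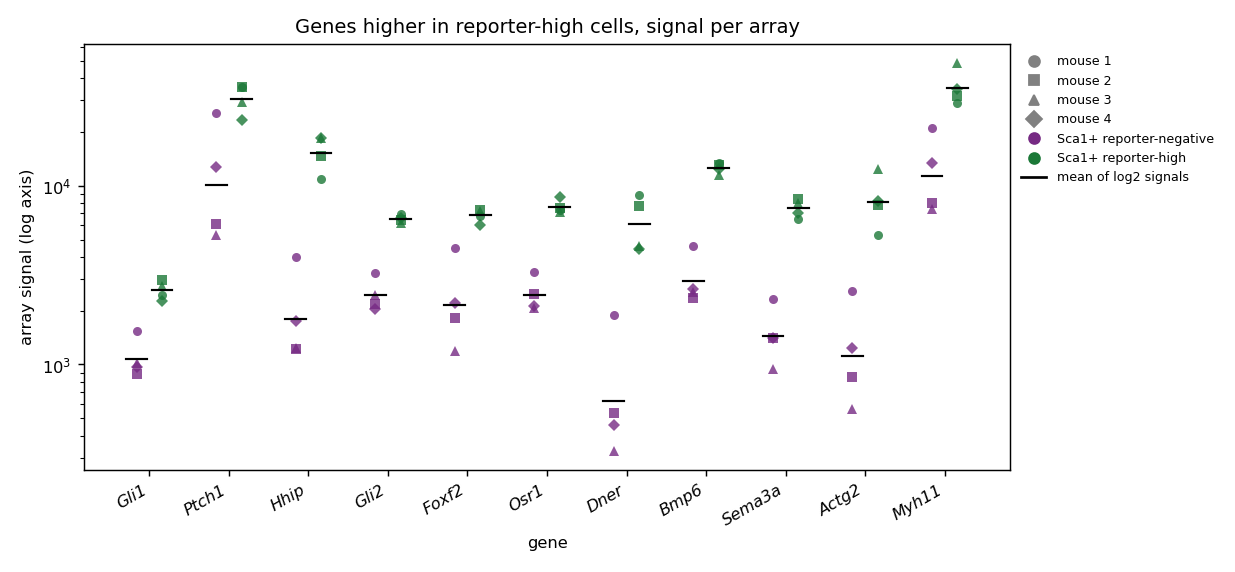
Signal per array on a log axis (vertical) for 11 genes that were higher in reporter-high cells (green) than in reporter-negative cells (purple), with 1 point per array, marker shape for mouse and a black bar at the mean of the log2 signals. Except for Ptch1, where the reporter-negative array of mouse 1 at 25514 exceeds the reporter-high array of mouse 4 at 23242, the groups do not overlap.

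Transcription factors that pattern gut mesenchyme shifted with these genes. Of 15 measured factors 9 rose and 0 fell, with a median of 1.12 and of 0.51 relative to the pan-stromal list, where 8 were higher and 3 lower. Foxf2, a forkhead factor of gut mesenchyme known to be induced by Hedgehog signals, read 6796, 7357, 7193 and 6037 in reporter-high and 4483, 1824, 1185 and 2216 in reporter-negative arrays (1.67 ± 0.39, adjusted p = 0.00486), and its call was lost without mouse 2. Pitx1, a homeobox factor of the hindgut and hindlimb, read 9775, 9599, 7762 and 9681 against 4653, 2199, 2550 and 2677 (1.66 ± 0.26, adjusted p = 0.00039). Osr1, a zinc finger factor of lateral mesoderm, read 7287, 7457, 7092 and 8623 against 3291, 2484, 2080 and 2122 (1.63 ± 0.25, adjusted p = 0.00042). The groups were apart for all 3 genes, and the reporter-negative array of mouse 1 was the highest of its group each time. Isl1 and Tcf21 rose by 1.34 ± 0.22 and 1.34 ± 0.31, as did Foxf1 (1.14 ± 0.24), Tbx2 (1.33 ± 0.26), Meis1 (0.68 ± 0.22) and Nkx2-3 (1.12 ± 0.15), a homeobox factor of gut and spleen stroma, and the calls of Foxf1 and Meis1 were lost without mouse 2. Meis2 (0.41 ± 0.17, adjusted p = 0.0881) and Tbx3 (0.36 ± 0.15, adjusted p = 0.0729) did not pass. Without mouse 2, 6 of the 15 rose and 0 fell.

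Hox genes, which record position along the body axis, moved in both directions. Of 33 measured members 4 rose and 8 fell, against 17.0% and 13.9% of all genes, and the median was -0.08. Hoxb13, the hindmost gene of the B cluster, read 461, 534, 1413 and 741 in reporter-high and 3373, 6088, 8643 and 5210 in reporter-negative arrays, without overlap (-2.95 ± 0.41, adjusted p = 0.000238). This gene is known from the epithelium of the distal colon as well, and its reporter-high array of mouse 3 was highest, as for the epithelial list. Hoxb9 (-1.14 ± 0.22), Hoxa5 (-0.84 ± 0.16) and Hoxb8 (-0.62 ± 0.17) also fell. Hoxa11 read 3631, 3172, 2823 and 3024 against 2025, 1271, 1394 and 1546 (1.04 ± 0.19, adjusted p = 0.00118), with the groups apart, and its neighbours Hoxa10 (0.54 ± 0.19) and Hoxa13 (0.42 ± 0.14) rose by less, together with Hoxd10 (0.56 ± 0.15). Hoxd13 and Hoxd9 did not pass, at 0.03 ± 0.13 and 0.01 ± 0.18. Scaled to hybridization controls 18 Hox genes were higher and 2 lower, against 12676 and 779 of all 17097 genes. Relative to the pan-stromal list 1 was higher and 29 lower, against 427 and 11776 of all genes. Without mouse 2, 1 rose and 4 fell, and Hoxa10, Hoxa13, Hoxd10 and Hoxb8 lost their calls.

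General fibroblast transcription factors divided. Of 17 measured, 9 rose and 3 fell, with a median of 0.48. Relative to the pan-stromal list the median was -0.12, with 1 member higher and 5 lower. Zeb2, a repressor of epithelial genes in mesenchymal cells, rose by 1.28 ± 0.25 and Hic1, a zinc finger repressor that marks quiescent mesenchymal progenitors, by 0.97 ± 0.20. Twist1 (0.95 ± 0.19) and Twist2 (0.86 ± 0.14) rose too. The 3 factors that fell were Ebf2, Ebf3 and Prrx1, factors of mesenchymal progenitors. Ebf3 read 830, 738, 840 and 814 in reporter-high and 1328, 3016, 1657 and 3002 in reporter-negative arrays (-1.39 ± 0.23, adjusted p = 0.000578). Ebf2 read 639, 427, 508 and 528 against 843, 1037, 887 and 1840 (-1.07 ± 0.19, adjusted p = 0.000856). Prrx1 read 1133, 833, 1134 and 1171 against 1186, 4229, 2140 and 3187 (-1.19 ± 0.30, adjusted p = 0.00705). The groups were apart for all 3, but for Prrx1 the gap between 1171 in reporter-high and 1186 in reporter-negative cells was narrow, and its call was lost without mouse 2 or mouse 4. Without mouse 2 the list had 6 members higher and 2 lower.

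Genes of the contractile apparatus were higher in reporter-high cells. Of 22 measured members 19 rose and 0 fell, with a median of 1.11. Relative to the pan-stromal list the median was 0.50, with 13 members higher and 1 lower. Actg2, the enteric smooth muscle actin, read 5310, 7762, 12423 and 8230 in reporter-high and 2590, 856, 567 and 1242 in reporter-negative arrays (2.85 ± 0.44, adjusted p = 0.000401). Myh11, the smooth muscle myosin heavy chain, read 29150, 31806, 48343 and 34627 against 20921, 8013, 7379 and 13439 (1.64 ± 0.32, adjusted p = 0.00147). In both genes the reporter-high array of mouse 3 was highest and the groups did not overlap. Myl9, a regulatory light chain of myosin, read 13751, 15806, 19270 and 15487 against 9920, 3860, 3589 and 5467 (1.61 ± 0.28, adjusted p = 0.000823), and Tpm2, a tropomyosin, rose by 1.68 ± 0.32. The cardiac actin Actc1 read 419, 706, 1550 and 892 against 271, 233, 227 and 274, where the reporter-negative values were within the array background. The bound was a fold of at least 2.06 (adjusted p = 0.00121).

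Synpo2 (0.45 ± 0.26, adjusted p = 0.224) and Ldb3 (0.14 ± 0.11, adjusted p = 0.398), both proteins of actin bundles and Z-discs, did not pass. Without mouse 2, 13 contractile members rose and 0 fell. Defining markers of a neighbouring contractile type, the pericyte, were not called by limma in either direction (0 of 7, and 1 higher at an unadjusted p under 0.05, with 0 of 7 called without mouse 2 as well), among them Rgs5 (0.15 ± 0.29, adjusted p = 0.75) and Notch3 (-0.23 ± 0.14, adjusted p = 0.249). The contractile list mean was 12.35, 12.55, 12.74 and 12.48 against 12.01, 11.21, 11.11 and 11.47, so the reporter-negative array of mouse 1 stood nearest to the reporter-high arrays.

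The CArG box is the element through which serum response factor binds promoters of actin and myosin genes, and these promoters are shown because the contractile genes moved together. Of 19 contractile genes with a RefSeq promoter (GRCm38.p6), 5 (26.3%) held a CArG box on either strand in the 250 bases before the start site, against 205 of 13605 genes (1.51%) in all, 36 of 2321 genes called higher (1.55%) and 44 of 1891 called lower (2.33%). The 5 genes were Actc1, Myl9, Cnn2 (0.80 ± 0.16), Vcl (0.51 ± 0.16) and Ldb3. Among them Actc1, Myl9, Cnn2 and Vcl rose, Vcl with its call lost without mouse 2. The promoters of Actc1 (chr2:114052876-114053125, minus strand), Myl9 (chr2:156775214-156775463, plus strand) and Ldb3 (chr14:34588682-34588931, minus strand), 5′ to 3′ on the strand of the gene with the CArG box in capitals, were as follows.
Actc1: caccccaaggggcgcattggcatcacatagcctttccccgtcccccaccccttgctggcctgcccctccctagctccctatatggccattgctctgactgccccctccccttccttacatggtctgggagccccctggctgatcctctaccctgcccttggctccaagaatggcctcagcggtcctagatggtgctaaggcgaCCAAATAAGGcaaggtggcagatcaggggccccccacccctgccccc
Myl9: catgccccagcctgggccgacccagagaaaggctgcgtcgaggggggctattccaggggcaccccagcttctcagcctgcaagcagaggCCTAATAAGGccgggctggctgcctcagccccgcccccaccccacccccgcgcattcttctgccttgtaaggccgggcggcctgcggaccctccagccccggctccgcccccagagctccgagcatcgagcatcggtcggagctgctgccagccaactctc
Ldb3: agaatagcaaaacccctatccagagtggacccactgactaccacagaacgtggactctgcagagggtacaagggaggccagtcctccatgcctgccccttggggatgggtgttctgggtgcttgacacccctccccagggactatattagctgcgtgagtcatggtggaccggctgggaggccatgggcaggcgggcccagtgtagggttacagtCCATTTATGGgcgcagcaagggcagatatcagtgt
The box began 47 bases before the start site in Actc1, 161 before it in Myl9 and 35 before 1 of the listed start sites in Ldb3. A match describes letters in this window and does not show that a factor was bound. The GLI consensus GACCACCCA, searched on both strands in the same windows, was held by 27 of 13605 genes (0.198%), by 9 of 2321 called higher (0.388%), by 2 of 1891 called lower (0.106%) and by 0 of 13 genes of the Hedgehog list. No window held the GLI consensus overlapping a CArG box (0 promoters).

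Genes of caveolae and of the dystrophin complex, which tie the membrane of contractile cells to matrix, changed in the same direction. Of 16 measured, 12 rose and 0 fell, with a median of 0.87. Relative to the pan-stromal list the median was 0.26, with 6 members higher and 1 lower. Cavin3, a caveola coat protein, read 12868, 12037, 13134 and 11764 in reporter-high and 6356, 3428, 3869 and 3620 in reporter-negative arrays, without overlap (1.57 ± 0.28, adjusted p = 0.000878). The syntrophin Sntb1 rose by 1.44 ± 0.22, Cavin1 by 1.11 ± 0.20, and Ehd2, an ATPase at the neck of caveolae, by 1.05 ± 0.22. The scaffold Cav1 rose by 1.23 ± 0.30 with overlapping groups and was lost without mouse 2. Cavin2 (0.67 ± 0.27, adjusted p = 0.0756) and Utrn (-0.08 ± 0.08, adjusted p = 0.534) did not pass. Without mouse 2, 9 of the 16 rose and 0 fell.

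Integrins, the matrix receptors that anchor cells, moved by subunit. Of 23 measured, 6 rose and 6 fell (4 and 5 without mouse 2), against 17.0% and 13.9% of all genes. The subunits that rose included Itga8, a partner of Itgb1 on smooth muscle and mesangial cells, which read 700, 1125, 1624 and 890 in reporter-high and 572, 265, 236 and 274 in reporter-negative arrays (1.71 ± 0.29, adjusted p = 0.000669). Itgb3, a subunit of the vitronectin receptor, read 4677, 4879, 4754 and 5015 against 2698, 1603, 1533 and 1490 (1.45 ± 0.22, adjusted p = 0.000371). Neither subunit showed overlap. Itga6 (-2.46 ± 0.42), Itgb4 (-2.03 ± 0.29) and Itgb6 (-1.43 ± 0.32), subunits known from epithelium, fell, and Itga6 read 511, 489, 1727 and 767 against 2450, 4523, 4919 and 5510, with mouse 3 highest among reporter-high arrays as for the epithelial list. Itgb1 (0.24 ± 0.12, adjusted p = 0.131) did not pass.

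Of 37 potassium channels measured, 6 rose and 7 fell (5 and 3 without mouse 2), where 17.0% of all genes were called higher and 13.9% lower, and the median was -0.07. Kcnd3, the pore of a fast transient current, read 3287, 3584, 2479 and 2623 against 1655, 496, 449 and 828 (1.99 ± 0.41, adjusted p = 0.00223). Kcnmb1, the smooth muscle subunit of the calcium-activated channel, read 1127, 1403, 2776 and 1277 against 697, 459, 337 and 435 (1.73 ± 0.31, adjusted p = 0.000869), and its pore gene Kcnma1 rose by 0.96 ± 0.21. Both groups of values were apart for Kcnd3 and Kcnmb1. Kcnk1 (-3.39 ± 0.64), Kcne3 (-3.29 ± 0.48) and Kcnq1 (-1.58 ± 0.36), known from secretory epithelium, fell, and Kcnq1 lost its call without mouse 2.

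Among 31 receptors for transmitters, hormones and peptides, 12 rose and 6 fell. The 2 receptors for vasoactive intestinal peptide, a neuropeptide that relaxes gut muscle and drives secretion, moved apart. Vipr2 read 14218, 14877, 11081 and 12096 in reporter-high and 7613, 3866, 3561 and 4526 in reporter-negative arrays (1.48 ± 0.27, adjusted p = 0.00109). Vipr1 read 458, 279, 991 and 518 against 1388, 2410, 3520 and 2744 (-2.24 ± 0.39, adjusted p = 0.000802). Neither receptor showed overlap between the groups. For Vipr1 the reporter-high array of mouse 3 was highest, as for the epithelial list, and the epithelial share of its signal was not tested. The angiotensin receptor Agtr1a rose by 1.29 ± 0.35 and the UDP-sugar receptor P2ry14 by 1.40 ± 0.40, the latter with overlapping groups, and both calls were lost without mouse 2 and without mouse 4. The serotonin receptor Htr4 fell by 1.19 ± 0.30 and was lost without mouse 2. The endothelin receptor Ednrb, which read 2427, 4717, 2270 and 2127 against 3465, 633, 547 and 1175, did not pass (1.32 ± 0.50, adjusted p = 0.0587). Without mouse 2 the receptor list had 7 members higher and 4 lower.

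Bone morphogenetic proteins (BMPs) promote differentiation of colon epithelium, and their secreted antagonists protect the stem cell zone at the crypt base. Genes of both kinds were higher in reporter-high cells. Of 27 measured ligands, antagonists and targets 13 rose and 4 fell, with a median of 0.48 and of -0.12 relative to the pan-stromal list. The ligand gene Bmp6 read 13345, 13039, 11529 and 12451 in reporter-high and 4627, 2352, 2549 and 2637 in reporter-negative arrays, far apart (2.10 ± 0.20, adjusted p = 8.93e-05). Bmp4 read 27473, 28519, 23615 and 23405 against 19112, 7439, 7621 and 9482 (1.35 ± 0.30, adjusted p = 0.00321). Of the antagonists, Grem1 read 9949, 10342, 7042 and 7891 against 4341, 1905, 2236 and 3219 (1.65 ± 0.34, adjusted p = 0.00227), and the activin-binding Fstl3 rose by 1.28 ± 0.22. The values of Bmp4 and Grem1 did not overlap, yet both lost their calls without mouse 2.

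The BMP members that fell were Bmper, Id1, Fst and Smad7. Bmper, a secreted modulator that binds BMPs, read 253, 181, 180 and 334 in reporter-high and 1035, 559, 1844 and 1157 in reporter-negative arrays (-2.20 ± 0.36, adjusted p = 0.000578). Its groups were apart, and every reporter-high value was low on the array scale. The response genes Id1 (-1.12 ± 0.17, adjusted p = 0.000409) and Smad7 (-0.54 ± 0.11, adjusted p = 0.00252) and the activin antagonist Fst (-0.51 ± 0.13, adjusted p = 0.0065) followed. Bmp2 (0.57 ± 0.24, adjusted p = 0.0904) and Bmp1 (0.42 ± 0.15, adjusted p = 0.0507) did not pass. Without mouse 2, 2 members of this list rose and 3 fell, and Fst lost its call.

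**Figure D4:**
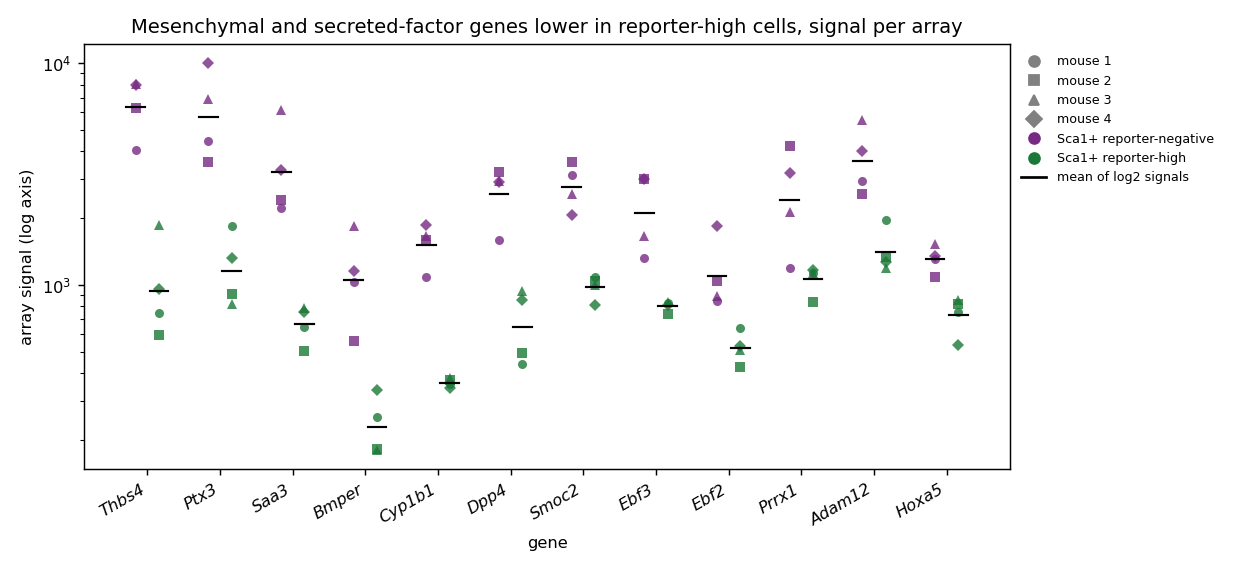
Signal per array on a log axis (vertical) for 12 secreted, matrix and transcription factor genes that were lower in reporter-high cells (green) than in reporter-negative cells (purple), with 1 point per array, marker shape for mouse and a black bar at the mean of the log2 signals. All 12 genes have their 4 reporter-high arrays below their 4 reporter-negative arrays, with the narrowest gap in Prrx1, at 1171 against 1186. In Thbs4 the reporter-high array of mouse 3 lies highest, as for the colon epithelium list.

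Wnt proteins sustain the crypt stem cells and R-spondins amplify their signal. Of 32 measured ligands, R-spondins and inhibitors 7 rose and 1 fell, with a median of 0.03, and the same counts were found without mouse 2. Wnt5b, a noncanonical ligand, read 1669, 2204, 1359 and 1705 in reporter-high and 932, 555, 651 and 492 in reporter-negative arrays (1.42 ± 0.21, adjusted p = 0.000351). Wnt2b, a canonical ligand of colon stroma, read 10628, 9185, 8555 and 10539 against 4747, 3597, 3434 and 4005 (1.31 ± 0.16, adjusted p = 0.000169). The groups of both were apart. Wnt4 (1.14 ± 0.17), Wnt2 (0.81 ± 0.15) and Wnt5a (0.80 ± 0.28, lost without mouse 2) rose as well, and so did the inhibitors Dkk3 (1.29 ± 0.25) and Sfrp1 (1.15 ± 0.22), the latter a secreted protein that binds Wnts. The R-spondin gene Rspo1 was the member that fell (-0.52 ± 0.08, adjusted p = 0.000349). Sfrp2 did not pass (0.88 ± 0.36, adjusted p = 0.0783).

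Growth factors of other families included rises and falls. Of 25 FGF, EGF and IGF family genes 8 rose and 3 fell (2 and 2 without mouse 2), with a median of -0.01. Fgf7, keratinocyte growth factor, which stromal cells make for epithelium, read 2840, 2498, 2587 and 2731 in reporter-high and 1536, 1185, 1249 and 1137 in reporter-negative arrays (1.07 ± 0.19, adjusted p = 0.000941). The EGF receptor ligand Hbegf read 2123, 2223, 7909 and 4187 against 16405, 19002, 23717 and 23717 (-2.53 ± 0.37, adjusted p = 0.000314), with reporter-high mouse 3 again nearest to the reporter-negative arrays. The groups of both genes were apart. The IGF-binding genes Igfbp6 (1.14 ± 0.23) and Igfbp5 (1.17 ± 0.32, lost without mouse 2) rose, and Igf1 did not pass (0.14 ± 0.18, adjusted p = 0.624).

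Of 17 PDGF, VEGF, HGF and angiopoietin factors 7 rose and 5 fell (2 and 3 without mouse 2). Vegfc, a growth factor of lymphatic vessels, read 2031, 2533, 1544 and 1790 in reporter-high and 1005, 506, 557 and 534 in reporter-negative arrays (1.64 ± 0.35, adjusted p = 0.0027). Pdgfc, a ligand of PDGF receptors, read 1083, 960, 1872 and 756 against 612, 329, 340 and 427 (1.41 ± 0.26, adjusted p = 0.00107). Neither gene showed overlap. The hepatocyte growth factor Hgf rose by 1.14 ± 0.25 and its receptor Met fell by 1.01 ± 0.30, both lost without mouse 2. For Met mouse 3 was highest among reporter-high arrays, as for the epithelial list. The fibroblast receptor Pdgfra was near the threshold (0.81 ± 0.29, adjusted p = 0.0496) with overlapping groups, and its call was lost without mouse 2 or mouse 4. Angptl4, a secreted inhibitor of lipoprotein lipase, fell by 1.07 ± 0.17.

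TGF-β drives matrix production in fibroblasts. Of 16 measured ligands, receptors and latency proteins 11 rose and 0 fell, with a median of 0.77 and of 0.17 relative to the pan-stromal list, where 4 were higher and 3 lower. The ligand gene Tgfb3 read 4883, 4821, 3496 and 3641 in reporter-high and 2642, 1191, 1368 and 1477 in reporter-negative arrays, without overlap (1.39 ± 0.30, adjusted p = 0.0031). The coreceptor Tgfbr3 rose by 1.12 ± 0.18, Ltbp4, which holds latent TGF-β in the matrix, by 1.03 ± 0.20, the receptor Acvr1 by 0.86 ± 0.16, and the induced matrix protein Tgfbi by 1.22 ± 0.28. Tgfbi lost its call without mouse 2, when 5 members rose and 0 fell. Ltbp1 (0.71 ± 0.29, adjusted p = 0.0774) and Acvr2a (0.09 ± 0.14, adjusted p = 0.675) did not pass.

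In the Notch list, 3 of 18 measured genes rose and 4 fell, against 17.0% and 13.9% of all genes. Dner, a neuronal membrane protein described as a Notch ligand, had the largest rise among the named genes of the comparison. It read 8901, 7676, 4615 and 4441 in reporter-high and 1883, 532, 330 and 459 in reporter-negative arrays (3.29 ± 0.55, adjusted p = 0.00061). The groups were apart, and the values came from a probe set whose suffix marks possible matches to related transcripts, although both probe sets of the gene passed in this direction. The receptor Notch2 rose by 0.80 ± 0.11 and the glycosyltransferase Rfng by 0.61 ± 0.11. The endothelial receptor Notch4 (-1.12 ± 0.17) and the target Nrarp (-1.30 ± 0.21) fell, and Notch1 (-0.12 ± 0.12) and Jag1 (-0.08 ± 0.11) did not pass. Without mouse 2, 3 members rose and 2 fell.

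Guidance cues, which steer axons and vessels, moved in both directions. Of 42 semaphorins, netrins, slits, ephrins and receptors 14 rose and 9 fell (12 and 9 without mouse 2), with a median of -0.02. Sema3a, a secreted repellent, read 6520, 8414, 7977 and 7075 in reporter-high and 2327, 1406, 946 and 1405 in reporter-negative arrays (2.37 ± 0.33, adjusted p = 0.000276). Ntn1, netrin, read 15475, 16444, 15876 and 14452 against 8341, 4056, 3972 and 4004 (1.69 ± 0.29, adjusted p = 0.000748), and Robo1, a slit receptor, read 5783, 5844, 5460 and 4932 against 3529, 1589, 1323 and 1926 (1.498 ± 0.28, adjusted p = 0.00127). In all 3 genes the groups were apart and the reporter-negative array of mouse 1 was the highest of its group. Sema3c rose by 0.96 ± 0.24. The transmembrane semaphorins Sema4g (-2.37 ± 0.33) and Sema4a (-1.77 ± 0.35) fell. For both, mouse 3 was highest among reporter-high arrays, as for the epithelial list.

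Matrix genes differed by class. Of 42 collagen genes 18 rose and 1 fell, with a median of 0.33 and of -0.28 relative to the pan-stromal list, where 5 were higher and 19 lower. The main fibrillar collagens did not pass. Col1a1 read 53516, 58041, 57886 and 52586 in reporter-high and 58029, 48656, 53245 and 48067 in reporter-negative arrays (0.10 ± 0.15, adjusted p = 0.685), and Col3a1 read 59759, 57020, 63724 and 64553 against 71754, 62626, 65219 and 69587 (-0.14 ± 0.08, adjusted p = 0.208). Both overlapped. These signals are high on the array scale, whose highest value was 155937, and whether differences are compressed there was not tested.

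Col8a1, a short-chain collagen of vessel walls, rose among the collagens, at 10558, 10158, 6070 and 7309 in reporter-high and 3543, 1786, 1905 and 1987 in reporter-negative arrays (1.91 ± 0.29, adjusted p = 0.00037, without overlap). Col18a1, a basement membrane collagen, rose by 1.17 ± 0.21, Col6a4 by 1.13 ± 0.26, and Col4a6 and Col4a5 by 1.35 ± 0.40 and 1.17 ± 0.38 with overlapping groups, and the last 3 lost their calls without mouse 2. Col17a1, a collagen of epithelial hemidesmosomes, was the member that fell (-1.02 ± 0.20, adjusted p = 0.00171). Without mouse 2, 5 collagens rose and 1 fell.

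Of 18 laminins and other basement membrane genes 8 rose and 3 fell (5 and 3 without mouse 2). Lama2, the laminin chain of muscle and mesenchyme, read 31284, 30968, 22363 and 25275 in reporter-high and 19300, 9312, 8820 and 10181 in reporter-negative arrays (1.27 ± 0.28, adjusted p = 0.0029), with the groups apart. Frem2 rose by 0.89 ± 0.13. The epithelial chains Lama3 (-1.90 ± 0.25) and Lamb3 (-2.41 ± 0.38) fell. Smoc2, a secreted calcium-binding matrix protein of stroma and crypt base, read 1080, 1038, 995 and 814 against 3123, 3572, 2558 and 2059 (-1.504 ± 0.18, adjusted p = 0.000134).

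Elastic fibre and crosslinking genes were nearly all higher. Of 21 measured, 18 rose and 0 fell, with a median of 0.86 and of 0.25 relative to the pan-stromal list, where 7 were higher and 1 lower. Eln, elastin, read 37505, 34919, 35112 and 31385 in reporter-high and 19477, 12572, 13016 and 11546 in reporter-negative arrays (1.32 ± 0.24, adjusted p = 0.00111). P4ha3, a collagen prolyl hydroxylase, read 1057, 1399, 1238 and 868 against 421, 514, 323 and 360 (1.495 ± 0.26, adjusted p = 0.000712). The groups of both were apart. The crosslinking enzyme Loxl2 rose by 1.198 ± 0.28 and the microfibril protein Mfap4 by 1.17 ± 0.33, both lost without mouse 2, while Emilin1 rose by 1.16 ± 0.25. Lox (0.30 ± 0.32, adjusted p = 0.54) and Efemp1 (0.42 ± 0.28, adjusted p = 0.299) did not pass. Without mouse 2, 7 of the 21 rose and 0 fell.

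Of 31 proteoglycan, hyaluronan and CCN genes 16 rose and 1 fell (6 and 1 without mouse 2), with a median of 0.52. Relative to the pan-stromal list the median was -0.08, with 7 members higher and 8 lower. Ccn2, connective tissue growth factor, read 39506, 39542, 32025 and 40999 in reporter-high and 22879, 8677, 8447 and 6528 in reporter-negative arrays (1.89 ± 0.36, adjusted p = 0.00127), without overlap. Thbs3, a thrombospondin, rose by 1.37 ± 0.25, and the small proteoglycan Aspn (1.64 ± 0.47) and the link protein Hapln1 (1.34 ± 0.31) rose with overlapping groups and lost their calls without mouse 2 or mouse 4. Thbs4, another thrombospondin, was the member that fell. It read 746, 595, 1864 and 953 against 4070, 6256, 8032 and 8003 (-2.75 ± 0.35, adjusted p = 0.000183), with every reporter-high array below every reporter-negative one. Its reporter-high array of mouse 3 was highest, as for the epithelial list. Dcn, decorin, overlapped, at 99939, 97489, 96464 and 109863 against 97095, 85582, 85248 and 90948 (0.17 ± 0.10, adjusted p = 0.215).

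Of 33 matrix proteases and inhibitors 13 rose and 4 fell (5 and 1 without mouse 2). Mmp11 (1.00 ± 0.20) and Adamts10 (0.98 ± 0.17), metalloproteinases of stroma, rose. Adam12, a membrane protease induced in activated mesenchyme, read 1958, 1341, 1187 and 1262 in reporter-high and 2938, 2579, 5573 and 4024 in reporter-negative arrays, apart (-1.36 ± 0.23, adjusted p = 0.00058). Mmp3, stromelysin, fell by 0.91 ± 0.32 and lost its call without mouse 2 or mouse 4.

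Several secreted genes of inflammation and acute response were lower in reporter-high cells. Of 21 complement and acute-phase genes 4 rose and 8 fell (1 and 5 without mouse 2). Ptx3, a soluble pattern recognition protein made by stromal and myeloid cells, read 1834, 905, 817 and 1326 in reporter-high and 4458, 3569, 6868 and 9998 in reporter-negative arrays (-2.31 ± 0.31, adjusted p = 0.000222). Saa3, a serum amyloid, read 648, 505, 788 and 754 against 2217, 2411, 6154 and 3301 (-2.28 ± 0.30, adjusted p = 0.000219). No reporter-high array reached a reporter-negative one in either gene. Saa1 (-2.51 ± 0.84, adjusted p = 0.0342) and Saa2 (-2.43 ± 0.78, adjusted p = 0.0277) fell with overlapping groups and lost their calls without mouse 2 or mouse 4, and the Saa genes are close relatives whose probes may share signal. For Saa1 and Saa2 mouse 3 was highest among reporter-high arrays, as for the epithelial list. The haemoglobin-binding gene Hp fell by 1.40 ± 0.32. The members that rose were components of the classical and lectin pathways and their inhibitor, C1ra (0.75 ± 0.17), C1s1 (0.63 ± 0.22), Masp1 (0.43 ± 0.15) and Serping1 (0.54 ± 0.17), the last 3 of these lost without mouse 2, while the alternative and classical convertase genes Cfb (-1.10 ± 0.18) and C2 (-0.92 ± 0.12) fell.

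Of 38 chemokines, cytokines and decoy receptors 6 rose and 8 fell (1 and 8 without mouse 2), where 17.0% of all genes were called higher and 13.9% lower. Ackr4, a receptor that removes homing chemokines, read 20275, 16789, 6795 and 9930 in reporter-high and 6441, 3448, 2444 and 3044 in reporter-negative arrays (1.78 ± 0.43, adjusted p = 0.00601). The groups were barely apart, with 6795 above 6441, and the call was lost without mouse 2. Tnfsf13b, the B-cell survival factor BAFF, read 9883, 9510, 8977 and 11866 against 5152, 3256, 4303 and 3596 (1.32 ± 0.18, adjusted p = 0.000233), clearly apart. Ccl6 (-2.81 ± 0.38), Il1rn (-2.62 ± 0.52) and Il18 (-2.55 ± 0.31), genes also made by epithelium or leukocytes, fell. In each the reporter-high array of mouse 3 was highest, as for the epithelial list. Il6 (-0.69 ± 0.53, adjusted p = 0.367) and Cxcl1 (-0.05 ± 0.31, adjusted p = 0.931), cytokines of activated fibroblasts, did not pass.

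Prostaglandin genes, which link stroma to epithelial repair, included 6 rises and 1 fall among 18 measured (4 and 1 without mouse 2). The receptor Ptger2 read 3019, 3227, 1803 and 2753 in reporter-high and 1651, 651, 505 and 711 in reporter-negative arrays (1.74 ± 0.30, adjusted p = 0.000723), and Ptger1 read 5977, 5615, 5501 and 5562 against 3374, 2016, 2299 and 2399 (1.19 ± 0.16, adjusted p = 0.000227). Neither overlapped. The phospholipase Pla2g4a rose by 0.87 ± 0.19 and the synthase Ptges by 0.52 ± 0.18, both with overlapping groups and lost without mouse 2, and the transporter Slco2a1, which takes up prostaglandins, fell by 1.72 ± 0.24.

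Of 23 genes of retinoid and steroid handling 7 rose and 4 fell (4 and 3 without mouse 2). The 4 that fell were all enzymes. Cyp1b1, an oxidase of oestrogens and retinoids, read 355, 371, 378 and 344 in reporter-high and 1082, 1586, 1663 and 1872 in reporter-negative arrays (-2.07 ± 0.22, adjusted p = 0.000114). Adh1, which oxidizes retinol, read 14541, 13942, 22870 and 21898 against 34892, 44843, 50811 and 46911 (-1.30 ± 0.19, adjusted p = 0.000328). The groups were apart in both. Within reporter-high cells Cyp1b1 varied little and lay near the highest nonspecific control, which read 262, 265, 234 and 327 in the arrays of mice 1 to 4. Hsd17b2, which inactivates sex steroids, fell by 2.47 ± 0.37, and the retinol dehydrogenase Rdh16 by 1.46 ± 0.33 (lost without mouse 2). Rbp4, the carrier of retinol in plasma, rose by 1.26 ± 0.24, whereas Aldh1a2, which makes retinoic acid, did not pass (0.20 ± 0.26, adjusted p = 0.614).

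Marker lists of 2 colon fibroblast subtypes both had more members higher than lower in reporter-high cells with arrays as deposited. Of 18 markers of CD34+ adventitial fibroblasts 11 rose and 1 fell (7 and 1 without mouse 2), with a median of 0.57. Relative to the pan-stromal list the median was -0.04, with 2 members higher and 3 lower. Cd34, a sialomucin, read 28656, 26796, 24973 and 26240 in reporter-high and 15151, 11885, 9600 and 12774 in reporter-negative arrays (1.13 ± 0.27, adjusted p = 0.00539). Dpp4, a surface peptidase of adventitial progenitors and of the epithelial brush border, read 438, 491, 939 and 854 against 1593, 3215, 2956 and 2923 (-2.001 ± 0.37, adjusted p = 0.00111). Neither gene had overlapping groups. For Dpp4 the reporter-high array of mouse 3 was highest, as for the epithelial list. Of 19 markers of PDGFRA-high subepithelial fibroblasts 9 rose and 2 fell (4 and 2 without mouse 2), with a median of 0.77 and of 0.16 relative to the pan-stromal list. Edil3, an integrin-binding matrix protein, rose by 1.26 ± 0.25, beside Wnt5b, Wnt4 and Tcf21 above, and F3, tissue factor, did not pass (-0.94 ± 0.38, adjusted p = 0.0704).

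The lists that follow had more members lower than higher once arrays were scaled to the pan-stromal list. This scaling gave 8 members higher and 17 lower among the transmitter and peptide receptors, 5 and 8 among the BMP genes, 5 and 19 among the Wnt genes, 7 and 23 among the guidance genes, and 2 and 14 among the proteases. It gave 2 higher and 25 lower among the potassium channels, 3 and 13 among the integrins, 2 and 26 among the chemokines and cytokines, and 1 and 12 among the retinoid and steroid genes. The counts were 3 and 14 among FGF, EGF and IGF genes, 3 and 10 among PDGF and VEGF factors, 1 and 13 in the Notch list, 2 and 10 among prostaglandin genes, 0 and 10 among complement genes, 1 and 7 among laminins, and 5 and 6 among PDGFRA-high markers. Scaled to hybridization controls the first 9 of these lists had more members higher, with 20 and 2, 21 and 2, 31 and 0, 26 and 4, and 23 and 1 for the first 5, and 27 and 4, 12 and 3, 18 and 4, and 14 and 4 for the other 4. Over all 17097 genes 427 were higher and 11776 lower relative to the pan-stromal list. With hybridization controls these counts were 12676 and 779.

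**Figure D5:**
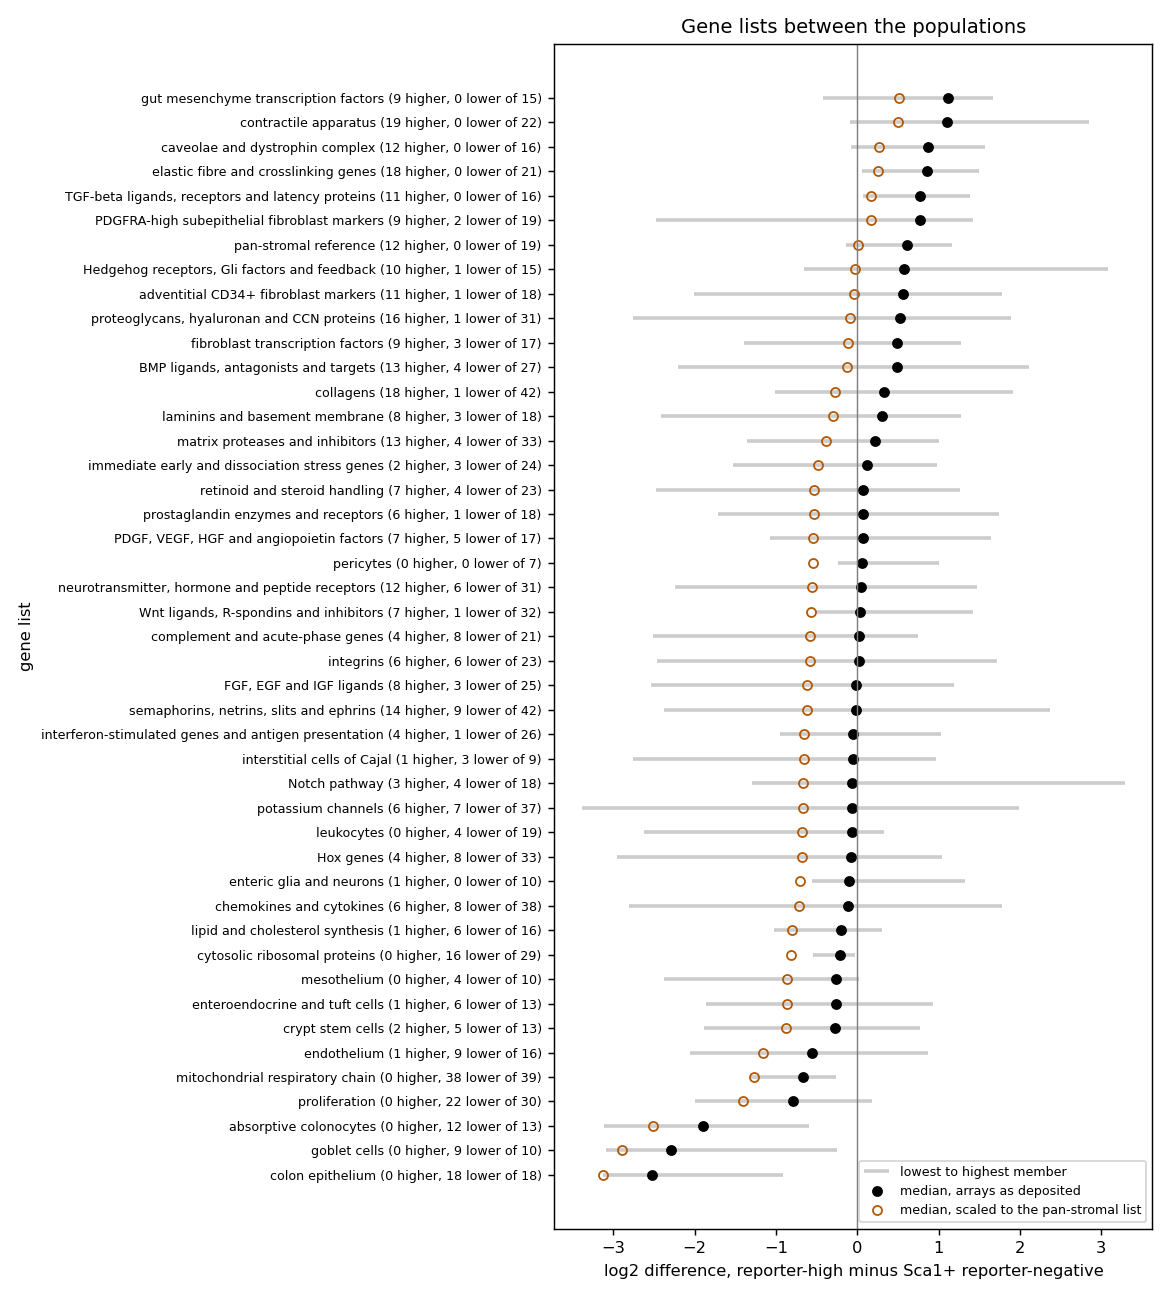
Log2 difference between reporter-high and reporter-negative cells (horizontal axis) for 45 gene lists, with the range over members as a line, the median as a filled point and the median relative to the pan-stromal list as an open point. The contractile list has its median at 1.11 and the gut mesenchyme factors at 1.12, while the colon epithelium list lies at -2.52 and the mitochondrial list at -0.67.

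The 15 largest rises that passed the naming rule included genes of less well described roles in stroma. Besides Dner, Hhip, Actg2, Sema3a, Bmp6, Kcnd3, Col8a1, Ccn2 and Ackr4 above, they were Speer4b (1.97 ± 0.35), Pid1 (1.88 ± 0.33), Aard (1.81 ± 0.30), Rai2 (1.80 ± 0.40), Cldn1 (1.78 ± 0.21) and Negr1 (1.77 ± 0.30). Negr1, a neural adhesion protein, read 3604, 3559, 2398 and 2619 in reporter-high and 1327, 650, 655 and 1048 in reporter-negative arrays. Cldn1, a tight junction protein, read 1080, 1396, 1176 and 1617 against 532, 302, 421 and 301, without overlap, which sets this claudin apart from the 3 claudins named below. Speer4b belongs to a multigene family, and its probe set may detect several members.

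The 15 largest falls by the same rule included 5 genes of cell junctions. Perp (-3.49 ± 0.47), Pof1b (-3.36 ± 0.32), Cldn23 (-3.35 ± 0.47), Cldn2 (-3.32 ± 0.67) and Cldn8 (-3.22 ± 0.43) encode proteins of junctions or their actin belts, and Perp read 465, 491, 2640 and 1219 in reporter-high and 8234, 10846, 10664 and 12208 in reporter-negative arrays. Kcnk1 and Kcne3 stand with the channels above. The others were Hao2 (-3.37 ± 0.39), Rnf128 (-3.33 ± 0.44), Rhpn2 (-3.31 ± 0.57), Akr1c14 (-3.31 ± 0.33), Nipal1 (-3.31 ± 0.60), Mal2 (-3.29 ± 0.48), Hepacam2 (-3.28 ± 0.56) and Sval1 (-3.21 ± 0.53).

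Genes of the goblet and absorptive lineages fell with the general epithelial genes. All 18 colon epithelium genes fell, with a median of -2.52 and members between -3.12 and -0.91, and 16 fell without mouse 2. Cdh1, the epithelial cadherin, read 2001, 2133, 9806 and 4285 in reporter-high and 18746, 25307, 27393 and 29937 in reporter-negative arrays (-2.77 ± 0.43, adjusted p = 0.000425). Of 10 goblet cell genes 9 fell (6 without mouse 2), among them the mucus secretion genes Clca1 (-3.09 ± 0.64) and Agr2 (-2.89 ± 0.45) and the lineage factor Atoh1 (-2.34 ± 0.34). Of 13 absorptive genes 12 fell (9 without mouse 2), such as the transporter Slc5a8 (-3.11 ± 0.36) and the exchanger Slc26a3 (-2.09 ± 0.36). Under the scaling to hybridization controls 17, 9 and 11 genes of these 3 lists were still lower.

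Of 13 crypt stem cell genes 2 rose and 5 fell, against 17.0% and 13.9% of all genes. The falls included Prom1 (-1.89 ± 0.30) and Rnf43 (-1.0003 ± 0.24), and Myb, within the array background in reporter-high cells, was at least 1.62-fold lower there. The Wnt target Axin2 did not pass (-0.27 ± 0.12, adjusted p = 0.107). Of 13 enteroendocrine and tuft cell genes 1 rose, Dclk1 (0.93 ± 0.22), and 6 fell, among them Chga (-1.06 ± 0.29), Gcg (-1.57 ± 0.48) and Tph1 (-0.72 ± 0.17). Dclk1 is known from tuft cells and from fibroblasts, and its direction was opposite to that of the other called members. Rnf43, Chga and Gcg lost their calls without mouse 2, when the counts were 1 higher and 3 lower for the stem cell list and 1 higher and 2 lower for the enteroendocrine and tuft list.

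Genes of energy metabolism and growth were lower in reporter-high cells. Of 39 genes of the mitochondrial respiratory chain 38 fell (30 without mouse 2), with a median of -0.67 and members between -1.30 and -0.27. Uqcrc2, a core protein of complex III, read 8493, 9378, 9787 and 9033 in reporter-high and 17402, 18772, 17233 and 17829 in reporter-negative arrays (-0.96 ± 0.09, adjusted p = 7.97e-05). Cox5a, of cytochrome oxidase, read 6264, 6655, 10812 and 7290 against 16999, 19422, 19501 and 18815 (-1.30 ± 0.19, adjusted p = 0.000314). These groups were apart with little spread in the reporter-negative arrays. In both genes the reporter-high array of mouse 3 was highest, as for the epithelial list. The mean log2 signal of the mitochondrial list was 12.81, 12.87, 12.95 and 12.82 in reporter-high arrays, against 13.37 to 13.65 in reporter-negative ones. The epithelial share of these falls was not tested. Scaled to hybridization controls the median was -0.19 and 5 of the 39 were still lower.

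Of 30 proliferation genes 22 fell and 0 rose (10 and 0 without mouse 2), with a median of -0.79. Mki67, a protein of dividing cells, read 702, 789, 1583 and 1175 in reporter-high and 2442, 6510, 4886 and 3384 in reporter-negative arrays (-1.999 ± 0.35, adjusted p = 0.00077). Top2a (-1.81 ± 0.45), Birc5 (-1.63 ± 0.41) and Ube2c (-1.63 ± 0.38) fell, Top2a and Birc5 not without mouse 2, and the replication clamp Pcna did not pass (-0.43 ± 0.16, adjusted p = 0.059). In Mki67 the reporter-high array of mouse 3 was again highest, and the epithelial share of this signal was not tested.

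Of 29 cytosolic ribosomal protein genes 16 fell and 0 rose (5 and 0 without mouse 2), with a median of -0.21, and 11 were higher when scaled to hybridization controls, so the direction rested on the scale. Of 16 genes of lipid and cholesterol synthesis 6 fell and 1 rose, with the sterol enzymes Dhcr7 (-1.03 ± 0.18), Idi1 (-0.96 ± 0.21), Cyp51 (-0.90 ± 0.21) and Fdft1 (-0.90 ± 0.19) among the falls. The counts without mouse 2 were 5 lower and 1 higher.

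Endothelial markers were lower. Of 16 measured, 9 fell and 1 rose (3 and 0 without mouse 2), with a median of -0.55. Cldn5 (-1.38 ± 0.46, lost without mouse 2 or mouse 4), Cdh5 (-0.92 ± 0.22) and Tie1 (-0.91 ± 0.23, lost without mouse 2) fell, and the angiopoietin receptor Tek rose by 0.87 ± 0.28, a call lost without mouse 2. The endothelial list mean was 9.55 to 9.69 in reporter-high and 9.92 to 10.35 in reporter-negative arrays. Of 19 leukocyte genes 4 fell, led by the plasma cell gene Jchain (-2.62 ± 0.57), which read 490, 772, 530 and 1396 against 2538, 4411, 3232 and 11032, and the macrophage gene C1qa did not pass (0.06 ± 0.33, adjusted p = 0.923). Cd3e, a T cell gene, is 1 of the 4, though it lay within the array background in all 8 arrays. Without mouse 2, 2 leukocyte genes fell. Scaled to hybridization controls the endothelial list had 3 genes higher and 2 lower and the leukocyte list 9 higher and 1 lower, so these directions rested on the scale except for Pecam1, Jchain and others with falls beyond 0.47.

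Of 10 mesothelial genes 4 fell (2 without mouse 2). Wt1, a factor of mesothelium and some fibroblasts, read 284, 325, 327 and 381 in reporter-high and 695, 529, 991 and 743 in reporter-negative arrays (-1.14 ± 0.17, adjusted p = 0.000345). Krt7, a simple keratin, read 645, 620, 1728 and 805 against 2477, 5403, 6160 and 4886 (-2.38 ± 0.43, adjusted p = 0.00104). Both were without overlap. Upk3b (-0.28 ± 0.19, adjusted p = 0.285) and Nkain4 (0.02 ± 0.16, adjusted p = 0.935) did not pass, and Msln, the defining mesothelin gene, is 1 of the 4 although it was within the array background in all 8 arrays, so that no fold is given. Scaled to hybridization controls 4 mesothelial genes were higher and 2 lower.

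Markers of interstitial cells of Cajal, the pacemaker cells of gut muscle, were lower in part. Of 9 measured, 3 fell and 1 rose, with the same counts without mouse 2. The falls were Kit, Ano1 and Thbs4, the last described with the CCN genes above. In each the reporter-high array of mouse 3 was highest, as for the epithelial list. Kit, the receptor that defines these cells, read 209, 204, 302 and 214 in reporter-high and 409, 507, 572 and 691 in reporter-negative arrays (-1.22 ± 0.23, adjusted p = 0.00115). Ano1, their chloride channel and also a gene of secretory epithelium, read 2892, 2561, 3790 and 2802 against 7240, 6461, 8457 and 9116 (-1.38 ± 0.21, adjusted p = 0.0004). The groups were apart in both, at low signal for Kit. The calcium channel gene Cacna1h rose by 0.97 ± 0.27, and of 10 enteric glia and neuron genes 1 rose, Ret (0.38 ± 0.12, with 0 called without mouse 2), while the glial factor Sox10 did not pass (-0.09 ± 0.16, adjusted p = 0.711).

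Genes induced by cell isolation stress showed no common shift. Of 24 immediate early and dissociation genes 2 rose, Hspa1b (0.98 ± 0.30) and Socs3 (0.69 ± 0.21), and 3 fell, Fosl1 (-1.53 ± 0.37), Atf3 (-0.36 ± 0.12) and Dnajb1 (-0.30 ± 0.11), with no call in either direction without mouse 2. Egr1 (0.14 ± 0.07, adjusted p = 0.167) and Fos (0.13 ± 0.07, adjusted p = 0.23) did not pass. Of 26 interferon-stimulated and antigen presentation genes 4 rose, Ifit2 (1.03 ± 0.25), Usp18 (0.50 ± 0.17), Ifit3 (0.48 ± 0.16) and Irf8 (0.36 ± 0.12), and 1 fell, Rsad2 (-0.95 ± 0.30). None of these 5 was called without mouse 2. In the full comparison 17.0% of all genes were called higher and 13.9% lower. The class I genes H2-K1 (-0.10 ± 0.08) and H2-D1 (0.06 ± 0.07) did not pass.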

How the data were processed

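RNA of sorted colon fibroblast populations was measured on Affymetrix arrays, 1 per sample. The submitters' processing notes name Affymetrix Expression Console 1.1, and which summary and normalization it applied is not given in the sources used here. Each probe set was deposited as a score, standardized by the authors over 16 arrays to mean 0 and SD 1. They proved to be scores of log-transformed whole-number signals, which were recovered for 45141 of 45141 probe sets (values within 0.0001 of a whole number, recomputed scores within 1e-09, signals 58 to 155937). Tested on simulated data, this recovered 996 of 1000 probe sets exactly. The design had assumed expression values on a log scale.

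Probe sets with several symbols (551) or none (15588) and controls (104) were left out. For each gene the probe set of highest mean signal was used, and in 34 genes probe sets passed in opposite directions. Log2 signals of all 16 arrays were fitted in limma 3.58.1 (functions lmFit and eBayes, R 4.3.3), with 1 mean per population and no block. Two-sided p-values received Benjamini-Hochberg adjustment over 17097 genes, with a threshold of 0.05. A gene within the array background lay at or below the highest of 23 nonspecific controls on all 4 arrays of a population (2071 genes on all 8), and its fold is a bound against that control. Probe sets of Dner, Speer4b, Wnt5b, Ebf3, Wt1, Ano1, Pdgfc, Aspn, Saa2, H2-K1 and H2-D1, among others, carry suffixes that mark possible matches to related transcripts. No background was subtracted from the recovered signals, so differences of dim genes may be understated. The number of arrays limits the precision. The p-values set each difference against a spread estimated over all 16 arrays of the 4 populations, without a block for the mouse.

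Named genes were the sort genes, the 15 largest rises and falls past the threshold with 1 direction over all mouse labels and a higher mean over that of the median probe set, and per list up to 5 called members and 2 bright members not called. Of 1065 genes in 45 lists 941 were measured. Members and lists were chosen with earlier results of these data known. Outside the rule, and after their values were seen, the text names Xist, Eif2s3y, Cdon, Foxf1, Tbx2, Meis1, Nkx2-3, Hoxa10, Hoxa13, Hoxd10, Twist1, Twist2, Cnn2, Vcl, Kcnma1, Id1, Smad7, Fst, Wnt2, Wnt5a, Rspo1, Col17a1, C1ra, C1s1, Masp1, Serping1, Cfb and C2. The labels pair arrays by mouse. Deviations from the population means correlated at 0.474, -0.335, 0.506 and 0.12 within mice 1 to 4 and at -0.07 on average between mice. The negative value belongs to mouse 2, whose 2 arrays did not come from 1 animal. The design had set the mouse as a block in an alternative only, because the labels name the mouse but no test. The p-values given with genes therefore take no account of the pairing, and values without mouse 2 are given. Alternatives changed the scaling, filter, probe set rule, weights, arrays or block. Promoters were RefSeq's (GRCm38.p6). Other tools were numba 0.67.0, matplotlib 3.10.9, pandas 2.3.3 and numpy 2.4.6 under Python 3.11.15.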

Additional observations from a re-analysis of the deposited data

Results flagged for a closer look

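Of 618 sets of 4 values looked at, 36 had their highest or lowest array apart from the other 3 by more than Dixon's critical share of the range, where chance gives about 1 in 20. In the reporter-negative array of mouse 1 these were high signals of Bmp6 (4627), Col8a1 (3543), Rai2 (2886), Tpm2 (5877), Itga8 (572), Itgb3 (2698), Vegfc (1005), Ntn1 (8341), Loxl2 (3610), Thbs3 (3009), Emilin1 (4540), Nkx2-3 (2482), Pla2g4a (5399) and Serping1 (31558), and high mean log2 signals of the gut mesenchyme transcription factors (10.95) and elastic fibre genes (12.35). The same array was low for Met (1373), Sema4a (3643), Il18 (4440) and Dpp4 (1593), and that of mouse 4 was high for F3 (13017). The array of mouse 1 was also the only reporter-negative one with high Y-linked signal (Eif2s3y 3059).

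In the reporter-high array of mouse 3, high values were found for Hepacam2 (954), Itgb6 (345), Nrarp (947), Il18 (1926), Atoh1 (995) and Kit (302), and for the mean log2 signals of the interstitial cell of Cajal list (10.80) and the guidance list (10.84), while Ccn2 (32025) and Pitx1 (7762) were low. That array also had the highest colon epithelium mean of its group (12.23). Reporter-high mouse 2 was high for Ednrb (4717) and low for Prrx1 (833), mouse 4 was high for Wnt4 (8233), and mouse 1 was low for the mean log2 signals of the PDGF, VEGF, HGF and angiopoietin list (10.70) and the immediate early list (13.46).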

How the results depend on the processing

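Against 5276 calls, scaling to hybridization controls gave 13455 (12676 higher and 779 lower) and scaling to the pan-stromal list 12203 (427 higher and 11776 lower). Without single arrays or mice the calls ran from 2734 to 5636, the higher ones from 1385 to 3060 and the lower ones from 1349 to 2576. The lowest was without mouse 2, with 3194 without mouse 4. With the replicate block (mouse) limma called 5886 genes, 5191 of them shared with the unblocked fit and 0 in the opposite direction, and 4505 with the block and without mouse 2. The block added 6 calls and lost 0 among the 264 named genes. Other settings gave 4230 to 6554 calls, the lowest with arrays of low Y-linked signal, a choice made after seeing the data, as was the block without mouse 2. Of the named genes 63 lost their call without mouse 2 (17 with the block kept) and 40 without mouse 4, and 0 turned direction when a mouse was left out. Counting genes called in either fit, the log2 difference turned for 22 named genes relative to the pan-stromal list and for 11 with hybridization controls. Of those called as deposited, these were Ret (-0.22), Hoxa10 (-0.064), Hoxa13 (-0.18), Hoxd10 (-0.048), Ifit3 (-0.13), Irf8 (-0.24), Masp1 (-0.17), Ptges (-0.082), Serping1 (-0.061), Usp18 (-0.11) and Vcl (-0.096), and with hybridization controls Atf3 (0.11), Dnajb1 (0.17), Cd3e (0.13) and Msln (0.14). The others, called only after scaling, were Boc (-0.50), Hoxd13 (-0.57), Hoxd9 (-0.60), Igf1 (-0.47), Col1a1 (-0.51), Dcn (-0.43), Egr1 (-0.46), Fos (-0.48), Acvr2a (-0.51), H2-D1 (-0.54) and Nkain4 (-0.58), and with hybridization controls Gas1 (0.38), Col3a1 (0.34), Sox10 (0.38), H2-K1 (0.37), Jag1 (0.39), Notch1 (0.35) and Utrn (0.39). Both scalings move every gene by 1 amount per array, so these changes follow from their construction. Gli1 kept its direction and call in every alternative run. Array background limits what can be read from dim genes, as 2071 genes lay within it on all 8 arrays.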
